A study of Leptinotarsa decemlineata with 6 samples.

Results

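Chitin metabolism and the peritrophic matrix were represented by 24 genes in head transcriptomes of adult Colorado potato beetles (CPBs, Leptinotarsa decemlineata). These are the genes whose best protein match is named as a chitin synthase, chitinase, chitin deacetylase, peritrophin, peritrophic matrix protein or chondroitin proteoglycan, with cuticle proteins excluded, and whose mean level reached at least 1 TPM in a group. TPM is the share of a library that a gene holds after correction for transcript length, scaled so that each library sums to 1000000. The genes were thus chosen by their measured TPM levels as well as their names. The words matched 41 genes, of which 17 stayed below 1 TPM in both groups, 2 of them at 0 in all libraries. In all, 33919 of 236706 assembled genes met the same TPM rule. The 24 genes comprise 1 chitin synthase, 2 peritrophic matrix proteins, 4 chondroitin proteoglycans, 5 chitin deacetylases and 12 chitinases.

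The study asked how gut bacteria bear on olfaction and feeding choice in CPBs. It sequenced RNA from whole heads of 3 libraries labelled non-treatment and 3 labelled as treated with antibiotics. All beetles were adults collected in the field, reared on potato leaves and labelled WT. The antibiotic beetles ate leaves soaked in tetracycline, penicillin, ofloxacin, ciprofloxacin and ampicillin with Tween-20, a surfactant, for 3 days, and the concentration behind these libraries is not named in the sources used here. The controls are described in the methods as given sterile water and leaves with Tween-20, and elsewhere in the study as fed fresh leaves alone. Sex, age in days and the number of beetles per library are not given, and nothing says that replicates came from separate animals, so p-values measure only the spread between these libraries, which may be technical. The labels also name the cell type as olfactory cells of the head, although the methods describe whole heads. The non-treatment libraries carry titles beginning AA, while the study's own comparison names its control libraries HH, a title that no library analysed here carries. Count totals of the 5 libraries with counts lay between 25397497 and 33613953, and the depth of antibiotic replicate 1 is unknown.

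Chitin is a polymer of N-acetylglucosamine that stiffens the insect cuticle and, in the midgut, forms the scaffold of the peritrophic matrix, a sleeve around the food that separates it from the gut wall. Chitin synthase builds the polymer from UDP-N-acetylglucosamine, peritrophins hold the fibres together through chitin-binding domains, deacetylases remove acetyl groups, and chitinases cut the chain. In the red flour beetle Tribolium castaneum, chitin synthase 1 serves the cuticle and tracheae and chitin synthase 2 the midgut.

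Before the genes themselves, the labelled tissue was checked against marker lists, and the 2 groups differed in several of them. Of all genes tested, 7.26% fell and 2.88% rose (limma, adjusted p under 0.05). Genes of midgut digestion fell in 15 of 40 cases and rose in 1, and genes of the sperm list fell in 15 of 34 and rose in 2. Muscle genes rose in 9 of 17, antennal genes rose in 11 of 57 and fell in 1, and photoreceptor genes rose in 2 of 6. Neuron genes rose in 8 of 25 and fell in 4, cuticle genes fell in 7 of 41 and rose in 4, and none of 4 fat body and 7 hemocyte genes was called (limma, adjusted p under 0.05), with 0 and 1 at an unadjusted p under 0.05, while edgeR on counts called 3 hemocyte genes higher. The midgut list summed to 2173, 14861 and 3988 TPM in non-treatment replicates 1, 2 and 3. In antibiotic replicates 1, 2 and 3 it summed to 2642, 3499 and 3814 TPM, with 3 genes at 0 in every antibiotic library. Of these sums TRINITY_DN62157_c2_g9 alone held 1082, 841 and 1266 TPM in the non-treatment and 1763, 1345 and 2233 TPM in the antibiotic libraries. With edgeR on counts 6 of 38 midgut genes fell and 2 rose, while edgeR without a count filter had 30 of 40 fall and 4 rise. In limma 7 of 40 fell with no filter or with a pseudocount of 5. Leaving out 1 library moved the count of midgut genes that fell to between 3, without antibiotic replicate 1, and 23, without non-treatment replicate 1. It moved the muscle genes that rose to between 3 and 8 and the neuron genes that rose to between 3 and 5. The genes of the sperm list that fell went to between 10 and 17, and the cuticle genes that fell to between 2 and 7. Antennal genes that rose went to between 8 and 9 and photoreceptor genes that rose to between 1 and 2. The muscle list summed to between 6282 and 10583 TPM in the non-treatment and between 22513 and 23627 TPM in the antibiotic libraries. The sperm list was found by words such as sperm and axonemal, and a spermidine synthase match entered it by spelling alone. It summed to 879, 690 and 405 TPM in the non-treatment and 450, 526 and 656 TPM in the antibiotic libraries, so the groups overlapped. The arrestin homolog TRINITY_DN56693_c2_g3, which shuts off light receptors, was at 2.30, 1.83 and 1.63 TPM against 49.4, 57.0 and 37.4 TPM. The genes of the photoreceptor list next to it in mean level, TRINITY_DN62638_c3_g1 and TRINITY_DN53563_c5_g1, were not called. They match a rhodopsin-sensitive phosphodiesterase subunit delta and a beta-arrestin-1. Both entered the list by the words rhodopsin and arrestin in these names, which does not show that they mark photoreceptors. Their log2 differences were -0.07 and -0.37 (limma adjusted p = 0.881 and 0.437). The tissue that went into a library and the treatment can therefore not be told apart in any value that follows, and in bulk RNA fewer cells of a type and less RNA per cell cannot be told apart either.

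Taken as a group, the 24 genes held 2726, 5995 and 1635 TPM in non-treatment replicates 1, 2 and 3 and 84.1, 134 and 146 TPM in antibiotic replicates 1, 2 and 3. These sums are 0.273%, 0.599% and 0.163% of the non-treatment libraries and 0.00841%, 0.0134% and 0.0146% of the antibiotic libraries. All 3 antibiotic sums lay far below the lowest non-treatment sum. At a limma adjusted p under 0.05, 10 of the 24 genes were lower in the antibiotic group, where 7.26% of all genes tested were lower, and 0 were higher, where 2.88% of all genes were. At an unadjusted limma p under 0.05, 16 were lower and 1 was higher. In 15 genes every antibiotic library lay below every non-treatment library, against 19.8% of all genes, and in 1 gene above, against 10.5%. The median log2 difference, antibiotic minus non-treatment on log2(TPM + 1), was -2.43 over the 24 genes and -0.09 over all genes tested. The rule that chose the genes used these TPM levels, so these counts are a description. Leaving out antibiotic replicate 1 or antibiotic replicate 2 each left 5 genes lower, edgeR on the 5 libraries with counts left 6, and no setting gave a higher one.

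The 10 genes that fell carried most of the summed level in the non-treatment libraries. Their sums were 2595, 4989 and 1356 TPM there against 6.34, 6.03 and 28.9 TPM in the antibiotic libraries. The other 14 summed to 130.3, 1006 and 279 TPM against 77.8, 128 and 117 TPM, with a median log2 difference of -0.16. In the non-treatment group 4, 10 and 6 of the 24 genes exceeded 100 TPM in replicates 1, 2 and 3, and in the antibiotic group 0 did. Just inside the TPM rule stood peritrophic matrix protein 2-C at 1.17 TPM in its higher group, the chitinase TRINITY_DN56524_c0_g1 at 1.38 and the chitinase TRINITY_DN52157_c6_g1 at 1.59. Just outside stood a chitinase 13 match at 0.870 TPM, TRINITY_DN53401_c3_g3, another chitinase at 0.755, TRINITY_DN38573_c0_g1, and chitin synthase 1 at 0.675.

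**Figure D1:**
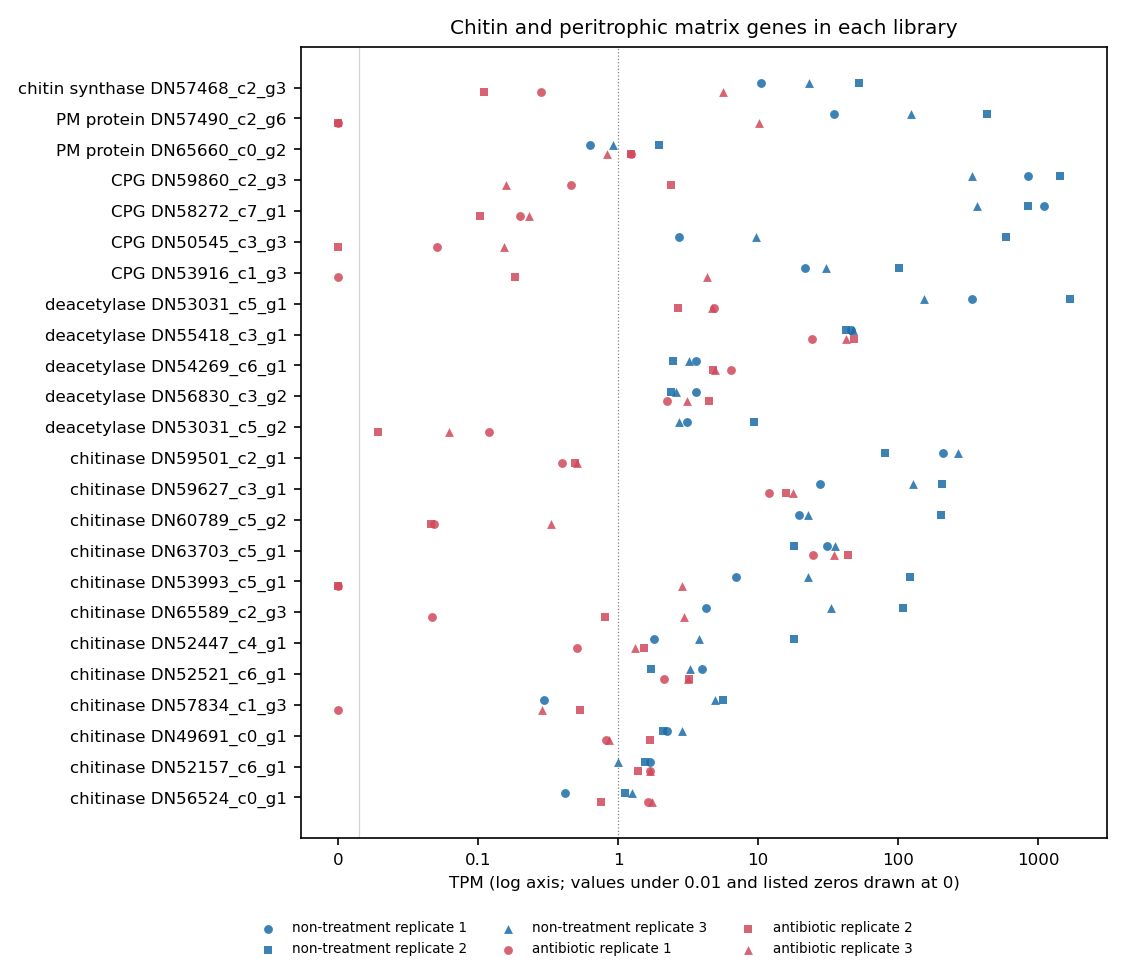
TPM (log axis, with listed zeros and values under 0.01 drawn at 0) of each of the 24 genes in the 6 libraries, where blue marks are the 3 non-treatment and red marks the 3 antibiotic libraries and the shape gives the replicate. PM protein stands for a peritrophic matrix protein, CPG for chondroitin proteoglycan, and the dotted line is 1 TPM. Antibiotic values lie below all non-treatment values in 15 rows, and no antibiotic value reaches 100 TPM.

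Synthesis was represented by chitin synthase 2 (TRINITY_DN57468_c2_g3), the enzyme that makes peritrophic matrix chitin in T. castaneum. Its level was 10.5, 53.0 and 23.1 TPM in the non-treatment and 0.281, 0.110 and 5.65 TPM in the antibiotic libraries. All antibiotic libraries lay below all non-treatment libraries, but antibiotic replicate 3 stood well above the other two. The counts behind these levels were 433, 2845 and 1172 for the non-treatment group and, in antibiotic replicates 2 and 3, 5 and 224. The group means were 28.9 ± 21.9 and 2.01 ± 3.15 TPM (SD, n = 3), a ratio of 14.3, and the gene fell by 3.54 on the log2 scale (SE 0.787, limma adjusted p = 0.03). The adjusted p went to 0.0916 without non-treatment replicate 2, 0.0856 without non-treatment replicate 3, 0.122 without antibiotic replicate 1 and 0.109 without antibiotic replicate 2 (limma), and edgeR on counts gave 0.219. Chitin synthase 1 (TRINITY_DN57742_c0_g1), the cuticle and tracheal enzyme, was too low for the rule, at 0.391, 0.337 and 0.425 TPM against 0.733, 1.08 and 0.213 TPM. Its groups overlapped, and at this level it did not enter the test.

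Among the structural proteins, peritrophin 1 fell and peritrophic matrix protein 2-C did not pass the test. Peritrophin 1 (TRINITY_DN57490_c2_g6), matched to a leaf beetle protein named after the chitin-binding proteins of the matrix but annotated with none of the chitin domains searched, was at 34.7, 434 and 124 TPM in the non-treatment libraries. In the antibiotic libraries it was at 0, 0 and 10.1 TPM. It was thus found in antibiotic replicate 3 only, where 711 counts lay behind the value, and in non-treatment replicate 2 it was at its highest. The means were 197 ± 209 and 3.37 ± 5.83 TPM (SD, n = 3), and the log2 difference was -5.80 (SE 1.15, limma adjusted p = 0.019). The adjusted p of peritrophin 1 went to 0.0598 without non-treatment replicate 2, 0.0635 without non-treatment replicate 3, 0.093 without antibiotic replicate 1 and 0.0812 without antibiotic replicate 2 (limma), and edgeR on counts gave 0.243. Peritrophic matrix protein 2-C (TRINITY_DN65660_c0_g2), a chitin-binding protein, was at 0.626, 1.95 and 0.920 TPM against 1.23, 1.24 and 0.836 TPM. Its groups overlapped, with means of 1.17 ± 0.697 and 1.10 ± 0.231 TPM (SD, n = 3), a log2 difference of -0.00 and an adjusted p of 0.998 (SE 0.300, limma).

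The chondroitin proteoglycan matches included the 2 genes with the highest non-treatment means of the 24. In the nematode Caenorhabditis elegans, proteins of this name bind chitin in the eggshell, and 3 of the 4 beetle genes here carry the chitin-binding domain of the peritrophins and share 1 best match, so that reads may have been split between them. TRINITY_DN58272_c7_g1 was at 1103, 854 and 369.6 TPM in the non-treatment group and 0.199, 0.103 and 0.230 TPM in the antibiotic libraries. The 3 values within each group lay close to each other compared with the gap between the groups. Its means of 776 ± 373 and 0.177 ± 0.0660 TPM (SD, n = 3) stood in a ratio of 4374, with 7 counts behind each of the 2 antibiotic libraries with counts, and it fell by 9.23 on the log2 scale (SE 0.385, limma adjusted p = 2.34e-05). TRINITY_DN59860_c2_g3 was at 850.4, 1427 and 340.0 TPM against 0.460, 2.39 and 0.159 TPM. Here the highest antibiotic library was replicate 2, with 11 counts against 3 in antibiotic replicate 3, and the groups again did not overlap. Its means were 873 ± 544 and 1.004 ± 1.21 TPM (SD, n = 3) and its log2 difference was -8.70 (SE 0.581, limma adjusted p = 0.000246). Both genes were lower under every alternative tried.

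The third gene with that best match, TRINITY_DN50545_c3_g3, was dominated by 1 library. It was at 2.73, 591 and 9.61 TPM in non-treatment replicates 1, 2 and 3 and at 0.0511, 0 and 0.154 TPM in the antibiotic libraries. Non-treatment replicate 2 was 217 times replicate 1, and the groups still did not overlap. The log2 difference of -4.75 did not pass (SE 1.63, limma adjusted p = 0.121), while without non-treatment replicate 2 it was -2.56 at an adjusted p of 0.0295. The fourth, TRINITY_DN53916_c1_g3, has its best match in a sea anemone and none of the chitin domains searched. It was at 21.7, 101 and 30.7 TPM against 0, 0.184 and 4.33 TPM. Antibiotic replicate 3 was again the highest of its group. This gene fell by 4.50 on the log2 scale (SE 0.757, limma adjusted p = 0.00993). Its adjusted p was 0.0567 without antibiotic replicate 1 and 0.0508 without antibiotic replicate 2 (limma), and 0.192 with edgeR on counts.

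**Figure D2:**
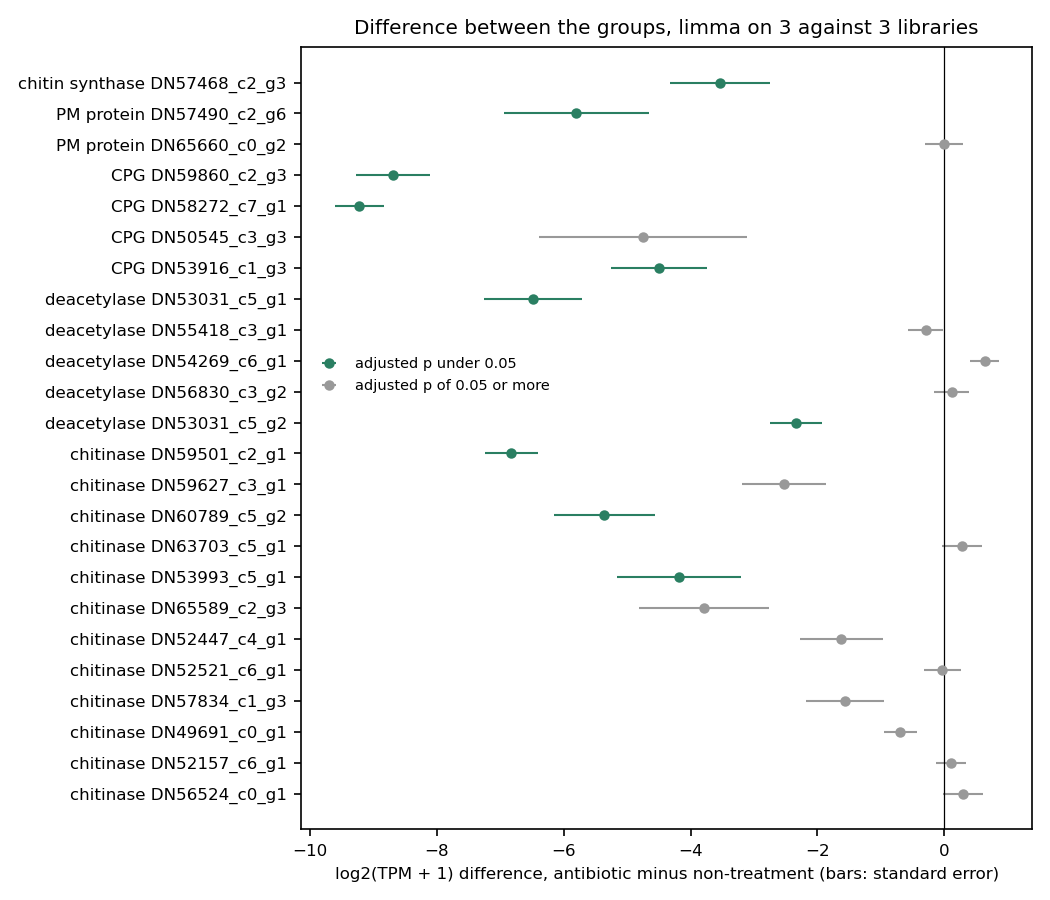
Difference between the groups for each of the 24 genes, antibiotic minus non-treatment on log2(TPM + 1), with the standard error of the limma fit on 3 against 3 libraries. Green points passed an adjusted p under 0.05 and grey points did not. The 10 green points lie between -9.23 and -2.34, and the highest grey point is chitin deacetylase 5 at 0.64.

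Of the 5 chitin deacetylases, which expose free amino groups on the polymer, 2 fell and 3 did not pass the test. The class summed to 392, 1763 and 210.1 TPM in the non-treatment and 37.8, 60.1 and 55.7 TPM in the antibiotic libraries. The member most abundant in the non-treatment group, TRINITY_DN53031_c5_g1, was at 336, 1706 and 154 TPM against 4.84, 2.68 and 4.70 TPM. Non-treatment replicate 2 was far above the other two, while the antibiotic libraries were alike. The means were 732 ± 848 and 4.07 ± 1.21 TPM (SD, n = 3), a ratio of 179.6, and the gene fell by 6.49 on the log2 scale (SE 0.776, limma adjusted p = 0.00261). Its neighbour in the same Trinity cluster, TRINITY_DN53031_c5_g2, was at 3.09, 9.39 and 2.73 TPM against 0.121, 0.0192 and 0.0619 TPM. It had the same order of non-treatment libraries at a much lower level and may share reads with the first. It fell by 2.34 (SE 0.408, limma adjusted p = 0.0115), with an adjusted p of 0.0541 without antibiotic replicate 1 and 0.0506 without antibiotic replicate 2. Both best match chitin deacetylase 1 proteins of a leaf beetle, Chrysomela tremula.

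A further chitin deacetylase 1 gene, TRINITY_DN55418_c3_g1, matches the T. castaneum protein of that name, which acts in the epidermal cuticle. It was at 46.1, 42.9 and 47.6 TPM against 24.2, 48.2 and 42.8 TPM. Apart from the low antibiotic replicate 1 these levels were alike, and the difference of -0.29 did not pass (SE 0.274, limma adjusted p = 0.559). Chitin deacetylase 5 (TRINITY_DN54269_c6_g1) was at 3.59, 2.49 and 3.21 TPM against 6.37, 4.79 and 4.97 TPM. It was the single gene of the 24 with every antibiotic library above every non-treatment library, and its difference of 0.64 did not pass (SE 0.224, limma adjusted p = 0.127). Chitin deacetylase 4 (TRINITY_DN56830_c3_g2) was at 3.62, 2.39 and 2.60 TPM against 2.25, 4.44 and 3.12 TPM, and its groups overlapped (log2 difference 0.12, SE 0.272, limma adjusted p = 0.824).

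The 12 chitinases all carry the glycoside hydrolase 18 domain of this enzyme family, and 3 of them fell while 9 did not pass the test. The class summed to 309, 769.8 and 527 TPM in the non-treatment and 44.1, 69.9 and 68.4 TPM in the antibiotic libraries, with a median log2 difference of -1.59. TRINITY_DN59501_c2_g1, which matches a chitinase 2-like protein of T. castaneum, was at 209, 80.7 and 267 TPM against 0.395, 0.495 and 0.505 TPM. Unlike the other genes that fell, it was lowest in non-treatment replicate 2. Its means were 185 ± 95.2 and 0.465 ± 0.0608 TPM (SD, n = 3), a ratio of 399, and it fell by 6.83 on the log2 scale (SE 0.418, limma adjusted p = 0.000151). On the counts of 5 libraries edgeR gave a smaller, 91.4-fold difference. TRINITY_DN60789_c5_g2, matched to a chitinase of the mustard beetle Phaedon cochleariae, was at 19.7, 201 and 22.9 TPM against 0.0486, 0.0459 and 0.333 TPM. It was highest in non-treatment replicate 2 and fell by 5.36 (SE 0.800, limma adjusted p = 0.00606), and both it and TRINITY_DN59501_c2_g1 were lower under every alternative tried.

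The third chitinase that fell, TRINITY_DN53993_c5_g1, matches chitinase 2 of C. tremula. It was at 6.97, 122 and 22.7 TPM against 0, 0 and 2.87 TPM, so that antibiotic replicate 3 was again the only library of its group in which it was found. It fell by 4.18 (SE 0.979, limma adjusted p = 0.0361). The adjusted p was 0.0632 without non-treatment replicate 2, 0.0907 without non-treatment replicate 3, 0.138 without antibiotic replicate 1 and 0.126 without antibiotic replicate 2 (limma), and 0.203 with edgeR on counts. TRINITY_DN65589_c2_g3 shares its best match with TRINITY_DN60789_c5_g2 and may share reads with it. Its levels were 4.28, 109 and 33.1 TPM against 0.0472, 0.807 and 2.94 TPM. The groups did not overlap and the difference of -3.79 did not pass (SE 1.03, limma adjusted p = 0.0604), while without non-treatment replicate 1 it was -4.97 at an adjusted p of 0.00903.

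Chitinase domain-containing protein 1 (TRINITY_DN59627_c3_g1), a relative of the chitinases that in mammals is a secreted saccharide-binding protein, kept a sizeable level in both groups. It was at 27.7, 208 and 129 TPM against 12.0, 15.9 and 17.9 TPM. The groups did not overlap, and the ratio of mean TPM was 7.96, while edgeR on the counts gave a 3.31-fold difference. Its difference of -2.52 did not pass (SE 0.660, limma adjusted p = 0.0542), and without non-treatment replicate 1 it was -3.36 at an adjusted p of 0.00238. TRINITY_DN63703_c5_g1, matched to a chitinase of the pine sawyer Monochamus alternatus, was at 31.3, 18.05 and 35.5 TPM against 24.8, 43.6 and 34.8 TPM. Its groups overlapped (log2 difference 0.29, SE 0.315, limma adjusted p = 0.621).

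The remaining 6 chitinases were low, between 0 and 18.1 TPM in any library, and none passed. Both chitinase 3-like matches and 3 Monochamus matches, of which TRINITY_DN52447_c4_g1 and TRINITY_DN56524_c0_g1 share a best match with TRINITY_DN63703_c5_g1, had log2 differences from -1.62 to 0.30 and limma adjusted p from 0.155 to 0.97. The gut-specific chitinase match TRINITY_DN57834_c1_g3, named after a longhorn beetle protein, was at 0.295, 5.63 and 4.93 TPM against 0, 0.532 and 0.288 TPM. Its groups overlapped through the low non-treatment replicate 1, without which its difference of -1.56 (SE 0.611, limma adjusted p = 0.167) became -2.32 at an adjusted p of 0.00821.

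Among the genes that fell, libraries within a group differed in a way that many of them shared. Of the 10 genes that fell, 8 were highest in non-treatment replicate 2, 1 in replicate 1 and 1 in replicate 3. In the antibiotic group 7 of the 10 were highest in replicate 3, and 5 reached 1 TPM there, against 1 in replicate 1 and 2 in replicate 2. The 14 genes not called did not share this order. Of these, 6 were highest in non-treatment replicate 2, and 8 were highest in antibiotic replicate 2 against 5 in antibiotic replicate 3. As a share of the non-treatment mean, the level left in antibiotic replicate 3 was 19.6% for chitin synthase 2, against 0.973% in replicate 1 and 0.380% in replicate 2. It was 5.12% for peritrophin 1 and 5.66% for the chitinase TRINITY_DN53993_c5_g1, both at 0 in replicates 1 and 2, and 8.47% for the proteoglycan TRINITY_DN53916_c1_g3. Several of the 10 had less left there. The deacetylase TRINITY_DN53031_c5_g1 was left at 0.643% in replicate 3 against 0.661% in replicate 1, and TRINITY_DN59860_c2_g3 at 0.0182% against 0.274% in replicate 2. For TRINITY_DN59860_c2_g3 only 3 and 11 counts lay behind these levels. Without non-treatment replicate 2 and antibiotic replicate 3 together, a setting chosen after seeing the data, 9 of the 10 genes were still lower.

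**Figure D3:**
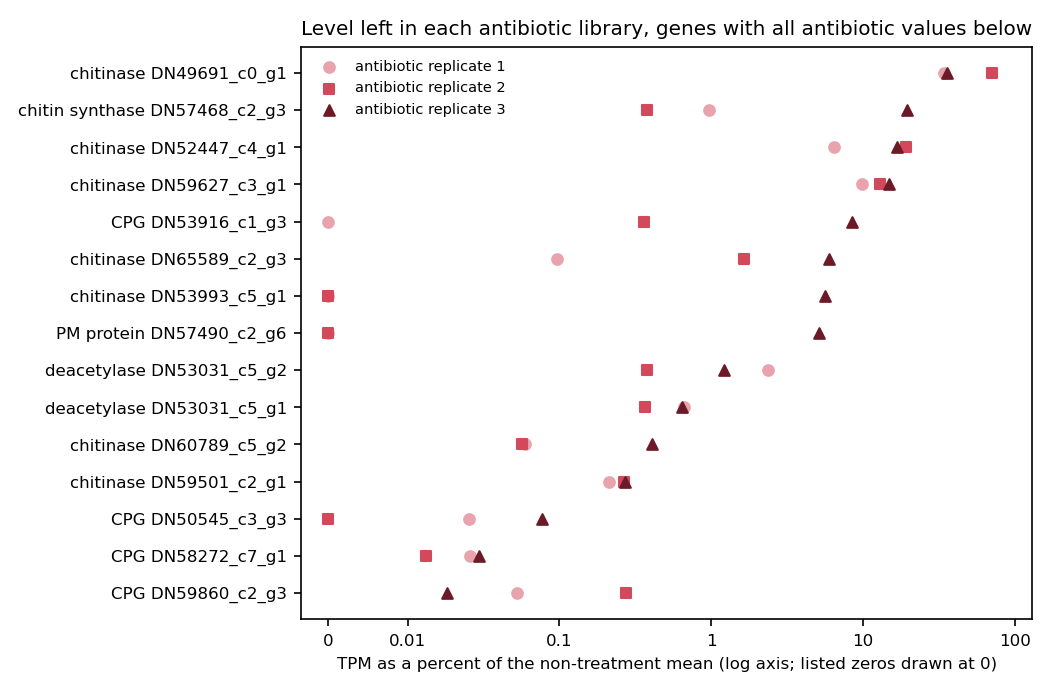
TPM in each antibiotic library as a percent of the non-treatment mean (log axis, listed zeros drawn at 0) for the 15 genes whose antibiotic values all lie below the non-treatment values. Shades and shapes mark the 3 antibiotic libraries. For chitin synthase 2 the percents are 0.973, 0.380 and 19.6 in replicates 1, 2 and 3, while for the deacetylase TRINITY_DN53031_c5_g1 they are 0.661, 0.366 and 0.643.

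The same 2 libraries were the highest of their groups in the intestains, the digestive cysteine proteases of the CPB midgut, a list of 16 genes chosen after their values were seen. They summed to 348, 11064 and 1340 TPM in non-treatment replicates 1, 2 and 3 and to 9.03, 6.35 and 95.6 TPM in antibiotic replicates 1, 2 and 3. Non-treatment replicates 1 and 3 stood in the opposite order to that of the summed levels of the 10 genes that fell. Gene by gene the order varied. Replicate 1 was above replicate 3 for TRINITY_DN58272_c7_g1, TRINITY_DN59860_c2_g3, TRINITY_DN53031_c5_g1 and TRINITY_DN53031_c5_g2. It was below replicate 3, as in the intestain sums, for the rest of the 10, chitin synthase 2 and peritrophin 1 among them. Of the 16 genes 8 fell, 0 rose and 3 were at 0 in every antibiotic library (limma, adjusted p under 0.05), where 7.26% of all genes tested fell. Leaving out 1 library gave between 1, without antibiotic replicate 1, and 11, without non-treatment replicate 1. With edgeR on counts 2 of 14 fell, and 15 of 16 without a count filter. In limma 3 of 16 fell with no filter or with a pseudocount of 5. The most abundant in the non-treatment group, TRINITY_DN57306_c4_g1, was at 145, 5628 and 584 TPM against 0, 0.137 and 45.9 TPM (log2 difference -7.70, limma adjusted p = 0.0322). Its adjusted p lay between 0.085 and 0.129 in limma without non-treatment replicate 2 or 3 or antibiotic replicate 1 or 2. The part of gut tissue in the levels of the 24 genes was not tested. The midgut list was not uniformly low, since the gene of it with the highest mean over all 6 libraries, the digestive cysteine proteinase 2-like TRINITY_DN62157_c2_g9, was at 1082, 841 and 1266 TPM against 1763, 1345 and 2233 TPM.

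The supply of chitin precursors was covered by 4 expressed genes of 23 that matched. Of the 4, 1 fell and 3 did not pass, where 7.26% of all genes tested fell. A hexokinase type 2 match (TRINITY_DN46100_c0_g1), an enzyme that phosphorylates glucose, was at 56.7, 49.5 and 10.96 TPM in the non-treatment group and at 0 in every antibiotic library (log2 difference -5.03, limma adjusted p = 0.00201). Glutamine-fructose-6-phosphate aminotransferase (TRINITY_DN54412_c2_g1), the entry step towards UDP-N-acetylglucosamine, was at 20.1, 49.9 and 46.1 TPM against 15.6, 30.1 and 22.1 TPM. Its groups overlapped (log2 difference -0.70, SE 0.388, limma adjusted p = 0.328). Trehalase (TRINITY_DN50711_c3_g2), which frees glucose from trehalose, and phosphoacetylglucosamine mutase (TRINITY_DN62066_c2_g3) had log2 differences of 0.41 and -0.27 at limma adjusted p of 0.432 and 0.613.

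The last step of breakdown, in which acetylglucosaminidases release single sugars from chitin fragments, was searched by name, with 9 expressed genes of 14 that matched. Of the 9, 2 fell, where 7.26% of all genes tested fell. The NAG2 match TRINITY_DN58467_c5_g3 was at 39.7, 43.9 and 41.1 TPM against 13.7, 23.3 and 24.5 TPM. The groups did not overlap, with means of 41.6 ± 2.11 and 20.5 ± 5.91 TPM (SD, n = 3), and the gene fell by 1.03 on the log2 scale (SE 0.250, limma adjusted p = 0.0419). The fdl-like hexosaminidase TRINITY_DN56747_c5_g5, named after a Drosophila enzyme that trims sugar chains on proteins, was at 19.2, 25.3 and 12.9 TPM against 3.12, 6.93 and 4.33 TPM and fell by 1.80 (SE 0.330, limma adjusted p = 0.0141). Leaving out 1 library gave the 2 genes limma adjusted p from 0.0605 to 0.12 for NAG2, past the threshold in each of the 6 cases, and from 0.017 to 0.0584 for the other, past it without non-treatment replicate 2 (0.054), antibiotic replicate 1 (0.0584) or antibiotic replicate 3 (0.0559). The other 7 did not pass, and the median of the 9 was -0.64. They include matches named hexosaminidase D and 2 alpha-N-acetylglucosaminidases, enzymes of heparan sulfate and not of chitin. The count and median of this list therefore do not describe chitin breakdown alone.

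The cuticle side of chitin was represented by 10 expressed genes named as cuticular proteins analogous to peritrophins, which belong to the cuticle, of which 2 were annotated with the chitin-binding domain searched, and which were left out of the 24 by the excluded words. None of the 10 passed in limma, with 2 lower and 2 higher at an unadjusted p under 0.05 and a median log2 difference of -0.26, while limma called 2 higher without antibiotic replicate 1 and 1 higher on rescaled TPM, and edgeR and DESeq2 on counts each called 2 higher. Together they summed to 52.4, 50.8 and 49.9 TPM in the non-treatment and 37.7, 70.1 and 66.3 TPM in the antibiotic libraries, so the groups overlapped. The whole cuticle list of 41 genes, which holds these 10, summed to between 739.9 and 885 TPM in the non-treatment and between 783 and 1129 TPM in the antibiotic libraries. No expressed gene matched the words for chitin-organising proteins such as Knickkopf.

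**Figure D4:**
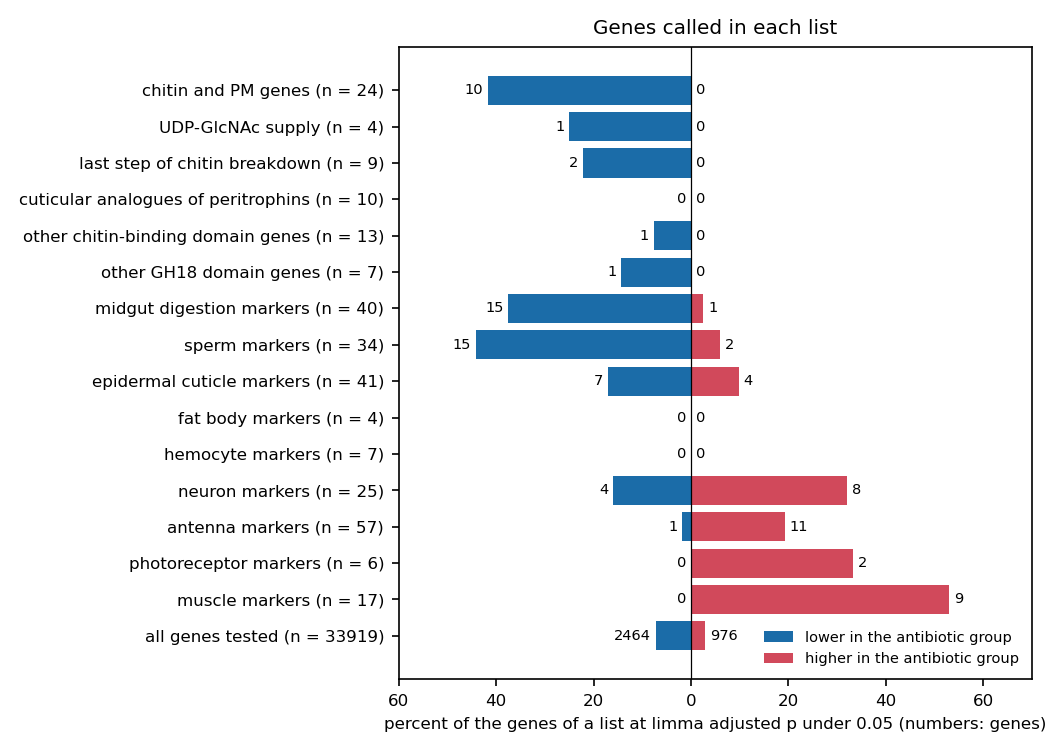
Percent of the genes of each list that were lower (blue, to the left) or higher (red, to the right) in the antibiotic group at a limma adjusted p under 0.05, with the number of genes at each bar. The 24 chitin and peritrophic matrix (PM) genes have 10 lower and 0 higher, the 40 midgut digestion genes 15 and 1, the 17 muscle genes 0 and 9, and all 33919 genes tested 2464 and 976.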

How the data were processed

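RNA of 6 libraries was extracted with the PureLink RNA Mini Kit and sequenced on an Illumina platform. The authors deposited TPM values per assembled gene for all 6 libraries, each summing to 1000000. Estimated counts deposited by the authors, some of them fractional, were used for 5 libraries and rounded before count tests. Antibiotic replicate 1 had no counts analysed here, and 2 count columns that repeat those of another library were not read. The methods credit TPM to featureCounts, while the submitters' processing notes name FastQC, Salmon, DESeq2 and mm10, a mouse build. The genes carry Trinity names and best protein matches, often from other species, and 0 of the 24 best matches were in the RefSeq gene table of the beetle. TPM keeps no depth and is relative: a gain in abundant genes lowers the others.

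Genes with a mean of at least 1 TPM in a group were fitted with limma (mean-variance trend, no covariate) on log2(TPM + 1). Adjusted p-values are Benjamini-Hochberg values over all 33919 genes, called under 0.05. Differences understate the change of low genes. A ratio of means is given only where both antibiotic libraries with counts held more than 3 counts. The members and lists were chosen with earlier results of these data known. Named genes were up to 6 per class by mean TPM and the 3 largest called differences. The lists of intestains and of protein domains were chosen after values were seen. Same-numbered libraries were not treated as pairs. Other settings numbered 19, with 1 more added after seeing the data. The tests were also run on simulated data with equal depths and the same spread setting for every gene. Such data do not hold the spread seen between these libraries, so nothing is drawn from them here. Tools were Python 3.11.15, pandas 2.3.3, NumPy 2.4.6, matplotlib 3.10.9 and R 4.3.3 (DESeq2 1.42.0, edgeR 4.0.16, limma 3.58.1).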

Additional observations from a re-analysis of the deposited data

How the results depend on the processing

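The 10 genes called lower were 10 or 11 with TPM rescaled by median-of-ratios factors, a mean taken over all 6 libraries, a minimum of 5 TPM, no trend or a pseudocount of 0.1, and 8 with no filter or a pseudocount of 5. The count of genes called lower was 6 with edgeR on 5 libraries and 6 with DESeq2 size factors in edgeR. DESeq2 called 8, of which 6 were among the 10, and edgeR without a count filter called 15. With genes chosen by the Swissprot column 8 of 27 were lower, 4 of them among the 10. Leaving out 1 library gave 5 to 13, the lowest without antibiotic replicate 1 or 2. No alternative called a gene higher. The median log2 difference was -4.18 with a minimum of 5 TPM, -3.86 and -1.54 with pseudocounts of 0.1 and 5, -3.61 with edgeR, -3.60 with DESeq2 size factors, -3.34 without a count filter, -3.37 with DESeq2 and -1.03 by the Swissprot column. Leaving out 1 library gave -2.95 to -1.90. Deviations from the group means over genes correlated at 0.13, -0.09 and 0.10 between the same-numbered libraries of replicates 1, 2 and 3. Between libraries of different numbers they correlated at -0.17 to 0.08. With 3 libraries per group this cannot settle whether same-numbered libraries are pairs. The replicate block gave 12 genes lower, the 10 among them. Of the 10, 5 kept their call under every alternative (TRINITY_DN53031_c5_g1, TRINITY_DN58272_c7_g1, TRINITY_DN59501_c2_g1, TRINITY_DN59860_c2_g3 and TRINITY_DN60789_c5_g2).

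Only uncalled differences near 0 changed sign. TRINITY_DN52521_c6_g1 went to 0.02 when rescaled, 0.05 with edgeR, 0.09 with DESeq2 and with its size factors, 0.07 without a count filter, and 0.05 to 0.15 without non-treatment replicate 1 or 3 or antibiotic replicate 1, with -0.28 the lowest of its single omissions and -0.34 without non-treatment replicate 2 and antibiotic replicate 3 together. TRINITY_DN65660_c0_g2 went to 0.04 when rescaled and with a pseudocount of 0.1, 0.34 without both of those libraries, and 0.24 and 0.09 without non-treatment replicate 2 or antibiotic replicate 3, with -0.19 the lowest. TRINITY_DN55418_c3_g1 went to 0.01 with edgeR, 0.04 with DESeq2 and with its size factors, and 0.02 without a count filter. TRINITY_DN63703_c5_g1 went to -0.02 and TRINITY_DN54727_c1_g2 to -0.07 without both, the former lay between 0.01 and 0.50 when 1 library was left out, TRINITY_DN52157_c6_g1 between -0.02 and 0.19 and TRINITY_DN56830_c3_g2 between -0.07 and 0.30. For all of these the cause was not tested. Depth limits the low genes: the gut-specific chitinase match had 1, 20 and 19 counts in the non-treatment libraries.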

Other observations

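Genes that carry the domains of the 24 but another name were described as lists chosen after their values were seen. Of 7 further genes with the glycoside hydrolase 18 domain 1 fell, where 7.26% of all genes tested fell. This gene, TRINITY_DN52952_c1_g1, was at 18.1, 34.7 and 23.6 TPM in the non-treatment libraries against 5.08, 11.3 and 10.1 TPM in the antibiotic libraries (log2 difference -1.45, limma adjusted p = 0.0385). Its adjusted p lay between 0.066 and 0.114 without any 1 library other than non-treatment replicate 1 (limma) and was 0.0566 with edgeR on counts. The most abundant was TRINITY_DN54727_c1_g2, matched to an imaginal disc growth factor, a chitinase relative that in Drosophila is secreted and has no chitinase activity. It was at 416, 299 and 586 TPM against 387, 567 and 563 TPM, and its groups overlapped (log2 difference 0.25, limma adjusted p = 0.665).

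The 13 further genes with the chitin-binding domain of the peritrophins include 2 cuticular analogues of peritrophins already described. Of the 13, 1 fell, where 7.26% of all genes tested fell, so the count does not set these genes apart. TRINITY_DN48065_c0_g1, whose best match is an uncharacterized wasp protein, was at 5.09, 5.01 and 11.8 TPM against 0.0563, 0.0821 and 0.0568 TPM (log2 difference -2.87, limma adjusted p = 0.0024). TRINITY_DN58722_c5_g2 was at 1.74, 66.7 and 40.5 TPM against 0, 0 and 13.5 TPM, the antibiotic order seen in peritrophin 1, and its difference of -3.02 did not pass (limma adjusted p = 0.245). The 13 summed to 81.7, 229.7 and 139.7 TPM against 20.9, 32.7 and 69.7 TPM, so the groups did not overlap. Neither of 2 further genes with the deacetylase domain was called by limma, edgeR or DESeq2, and 0 had an unadjusted limma p under 0.05.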
